A study of Mus musculus with 14 samples.

Results

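The matrix metalloproteinases (MMPs), the ADAMTS proteases and the tissue inhibitors of metalloproteinases (TIMPs) were examined in RNA-seq counts of induced hepatic stem cells, the organoids and assembloids made from them, and 3 reference samples. The members were all genes of the count table whose symbol is Mmp, Adamts or Timp followed by a family number, with no use of their values. This gave 46 of 28022 genes, namely 23 MMP, 19 ADAMTS and 4 TIMP genes. *Mmp1a* and *Mmp1b* had no counts in any of the 14 libraries, and 43 members reached 10 counts in 1 or more libraries.

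The study compared 7 conditions with 2 libraries each, all labelled with the C57BL/6J mouse strain. Fibroblasts (Fib) were mouse embryonic fibroblasts (MEFs) taken between embryonic days 13 and 14. Induced hepatic stem cells (iHepSCs) are MEFs that were converted with lentiviral *Oct4* and *Hnf4α*, and they were cultured as a monolayer on type I collagen (2D-iHepSC, here 2D-iHs) or as organoids in a hydrogel of type I collagen and Matrigel (iHLOs). The libraries labelled 3D-iHA, whose label reads hepatic assembloids, were taken as these iHLOs because the label names no endothelial cells. The co-cultures added induced endothelial cells (iECs), human HF1 fibroblasts converted with *ETV2*, in the monolayer (2D-iHepSCiEC, here 2D-iHEs) or in the assembloid (3D-iHEA, here iHEAs). Each co-culture was seeded with 30000 iHepSCs and 20000 iECs. Per the methods, the spheroids for the organoids and assembloids were first formed in another medium, and a shared medium with oncostatin M was used for culture after that. The day of culture at which RNA was taken is not given in the sources used here. Adult-Liver and Fetal-Liver were whole tissues, the former from mice 6 weeks old and the latter collected between embryonic days 14 and 15. The iHepSCs and iECs carry their conversion factors on integrated lentiviral vectors. Alignment was to the mouse genome, so a human iEC read entered the table if it matched a mouse gene, and the table does not tell it from a mouse read.

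MMPs are zinc-dependent endopeptidases that cleave collagens, gelatin, laminin and many cell surface proteins, and most are made as inactive proenzymes. The membrane-type MMPs are anchored at the cell surface, and MMP14 activates proMMP2 there together with TIMP2. ADAMTS proteases are secreted enzymes with thrombospondin repeats that cut proteoglycans such as versican, trim procollagens or cleave von Willebrand factor. TIMPs bind the active site of MMPs, and TIMP3 also inhibits several ADAM and ADAMTS proteases. In liver, activated stellate cells and portal fibroblasts are known sources of MMP2, MMP14 and TIMP1, and the balance of MMPs and TIMPs bears on how fibrotic matrix is built and removed.

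Total counts ranged from 20851489 to 35143325 per library, so that 3 counts, the floor used here, stood for 0.0746 to 0.123 CPM in 12 libraries and for 0.204 and 0.212 CPM in adult liver. CPM are counts scaled to a common library size, here by the trimmed mean of M-values (TMM). The 2 libraries of a condition differed by a chi-square statistic per gene of 2.93 to 3.49 in 5 conditions, by 10.9 in iHEAs and by 12.7 in fetal liver, where sampling noise alone gives 1. Nothing in the labels says that the 2 libraries came from separate cultures or animals, so p-values measure the spread between these libraries only. *Alb* had 8113083 and 7888792 counts in adult liver and 2 to 210 in the culture libraries, and the 8 hepatocyte markers summed to 279 to 387 CPM in the cultures against 623300 and 583700 CPM in adult liver. The 11 fibroblast and mesenchymal markers summed to 29540 and 30940 CPM in MEFs and to 4.94 to 13.9 CPM in the 8 culture libraries, in which *Lum* and *Thy1* had at most 1 count. Fetal liver held blood cell RNA as well, with 33640 and 32930 CPM of 7 erythroid markers. Fewer cells of a type and less RNA per cell cannot be told apart in bulk samples.

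The 3 families had different levels in each condition. Of the 43 members with 10 or more counts in a library, 18 had their highest mean CPM in MEFs, 12 in fetal liver, 6 in iHEAs, 4 in adult liver, 2 in iHLOs and *Mmp24* in 2D-iHs. In the iHLO libraries 25 members stood at the floor of 3 counts or fewer in both libraries, against 13 in MEFs and 7 in fetal liver. The 6 members with the highest mean in iHEAs were *Mmp7*, *Mmp10*, *Mmp13*, *Mmp15*, *Mmp20* and *Timp4*, and 3 of them rest on library 1 of iHEAs, as given with that library.

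**Figure D1:**
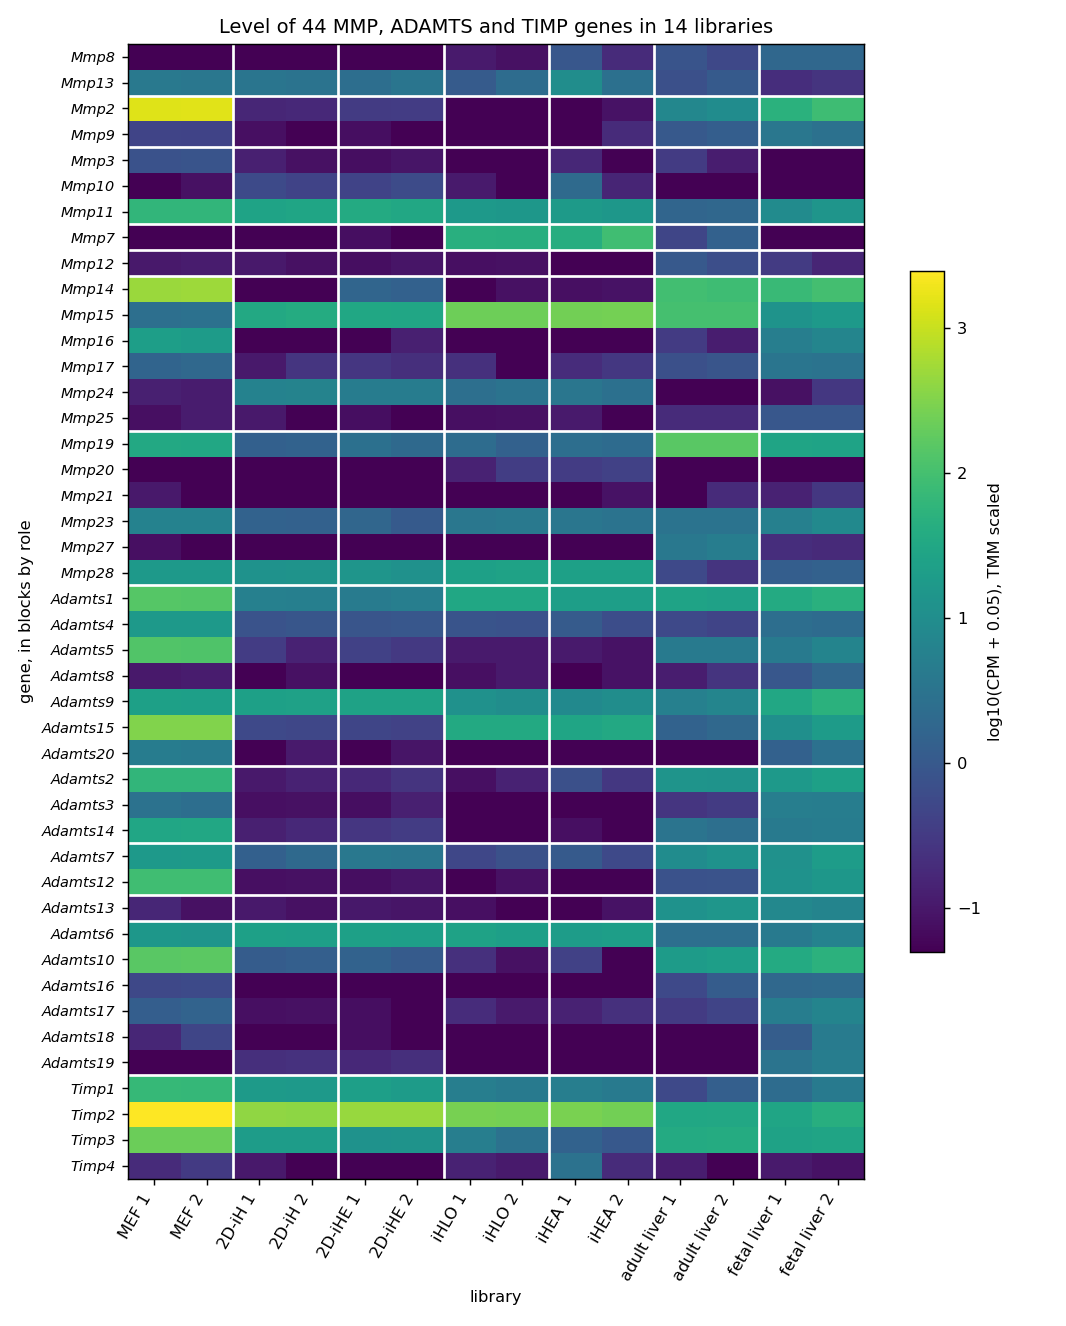
Level of the 44 members with a count, in rows grouped by role, in the 14 libraries, as log10 of TMM-scaled CPM plus 0.05, with white lines between conditions and roles. Of the 43 rows with 10 or more counts in a library, 18 have their highest mean in MEFs, whereas *Mmp7* is bright in the 4 iHLO and iHEA libraries and *Mmp19* and *Mmp27* in adult liver.

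To compare genes with each other, levels were divided by the exon length of each gene in kilobases. On this scale *Mmp2*, which encodes gelatinase A, was the leading protease in MEFs at 439 CPM per kb, followed by *Mmp14* at 83.01. In 2D-iHs and 2D-iHEs *Mmp11* (stromelysin-3) led at 9.78 and 12.6 CPM per kb, ahead of *Mmp15* at 6.68 and 5.62. In iHLOs *Mmp15* and *Mmp7* led with nearly equal levels of 42.5 and 42.2 CPM per kb, and their library values, 42.47 to 42.61 and 41.17 to 43.2, overlapped. In iHEAs *Mmp7* stood at 62.2 (39.3 and 85.2 in the 2 libraries) and *Mmp15* at 47.5 (46.3 and 48.6), so their order differed between the libraries. In adult liver *Mmp19* led at 43.3 CPM per kb, ahead of *Mmp15* at 18.7, and in fetal liver *Mmp2* and *Mmp14* had 19.9 and 14.8 CPM per kb with overlapping libraries.

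*Timp2* was the highest TIMP gene per length in every condition and gave 55.9% to 93.1% of the TIMP sum. The summed MMP level was 22.8 to 27 CPM per kb in the 4 libraries of 2D-iHs and 2D-iHEs, and 99.4 to 149 in the 4 libraries of iHLOs and iHEAs. The TIMP sum was 125 to 147 CPM per kb in the former and 68.2 to 78.5 in the latter. The ratio of the TIMP sum to the MMP sum, which does not depend on the scaling of a library, was therefore 5.15 to 5.76 in 2D and 0.458 to 0.748 in 3D, with no overlap. It was 1.27 and 1.31 in MEFs, 0.155 and 0.169 in adult liver, and 0.276 and 0.300 in fetal liver. In 3D *Mmp7* alone gave 43.2 and 41.2 CPM per kb of the MMP sum in iHLOs and 39.3 and 85.2 in iHEAs. Ratios below 1 in 3D depend on this 1 gene, without which the TIMP sum is the larger in all 4 libraries. These ratios are of RNA and carry no test. The summed ADAMTS level was 6.14 to 6.58 CPM per kb in 2D, 10.3 to 13.5 in 3D and 120 in both MEF libraries.

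**Figure D2:**
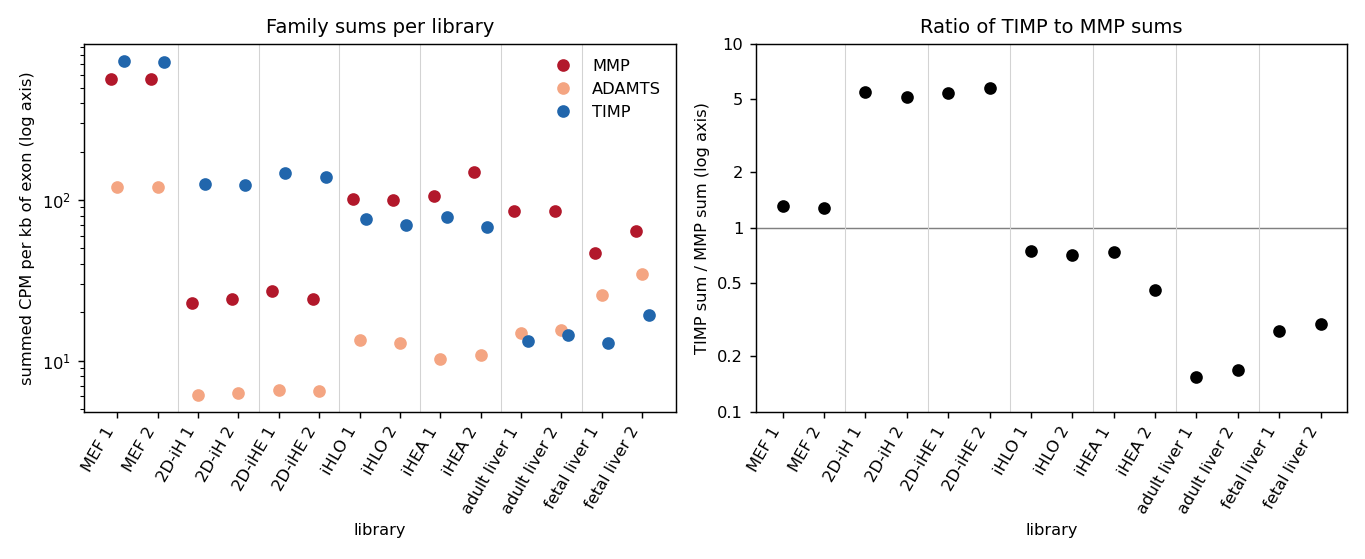
Left, summed level of the MMP, ADAMTS and TIMP genes in each library in CPM per kb of exon on a log axis. Right, the ratio of the TIMP to the MMP sum on a log axis with a line at 1. All 4 libraries of 2D-iHs and 2D-iHEs exceed it (5.15 to 5.76), and all 4 libraries of iHLOs and iHEAs fall below (0.458 to 0.748). The position below 1 depends on *Mmp7*, without which the TIMP sum is the larger in these libraries too.

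The first comparison asked how the members differed between 3D and 2D culture. *Mmp7*, *Adamts15*, *Mmp15*, *Adamts1*, *Mmp23* and *Mmp28* rose in 3D, and *Adamts10*, *Timp3*, *Timp1*, *Adamts7*, *Adamts9*, *Mmp11*, *Mmp24* and *Timp2* fell. A total of 19 members passed the filter on low counts, of which 6 were higher and 8 lower (edgeR's quasi-likelihood test, Benjamini-Hochberg adjusted p-value under 0.05). Among all 13409 genes tested, 75.9% were called by the same rule, 38.7% higher and 37.2% lower, so the share of members called, 73.7%, was near that of all genes. The direction of *Mmp7* and *Adamts10* was fixed by the filter, which they pass in 3D alone and in 2D alone. The median log2 fold change of the 19 members was 0.00, against 0.01 over all tested genes. The same 14 members were called with any single library left out, library 1 of iHEAs included. In comparisons of single conditions, leaving out a library leaves 1 in its condition, and its spread is then taken to be that of the other conditions. Marker lists also differed between 2D and 3D. The 4 proliferation markers summed to 991 to 1090 CPM in 2D and 183 to 218 in 3D. The 8 endothelial markers summed to 416 to 485 and 871 to 1352, also without iECs. Of these, *Vwf* (363 to 1010 counts in 2D, 11946 to 25206 in 3D), *Tek*, *Tie1*, *Stab2* and *Pecam1* had more counts in 3D. *Kdr* had fewer (10 to 25 against 0 to 4), and *Cdh5* (9451 to 16261 against 10322 to 14321) and *Egfl7* overlapped. The 6 cholangiocyte and progenitor markers summed to 1250 to 1495 and 1551 to 1936. The part of these lists in the results was not tested.

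Without iECs, 15 of 19 members were called between iHLOs and 2D-iHs, 6 higher and 9 lower, where 72.3% of all genes were called (36.9% higher and 35.3% lower). The filter fixed the direction of *Mmp7*, *Adamts10* and *Mmp10*, and of the 16 members that pass it in both conditions 5 were higher and 7 lower. With iECs, 15 were called between iHEAs and 2D-iHEs, 7 higher and 8 lower, where 70.9% of all genes were called (36% higher and 34.9% lower). Of the 17 members that pass it in both conditions there, 6 were higher and 7 lower. These comparisons share no library, and 14 members were called in the same direction in both, 93.3% of each list. The exceptions were *Mmp10*, lower in iHLOs alone, and *Mmp13*, higher in iHEAs alone. For both, the call rests on few libraries. The filter fixed the direction of *Mmp7* and *Adamts10*, which are among the 14, in both comparisons. The share of all genes called alike in both is not given here, so the 93.3% cannot be read as a trait of the members.

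**Figure D3:**
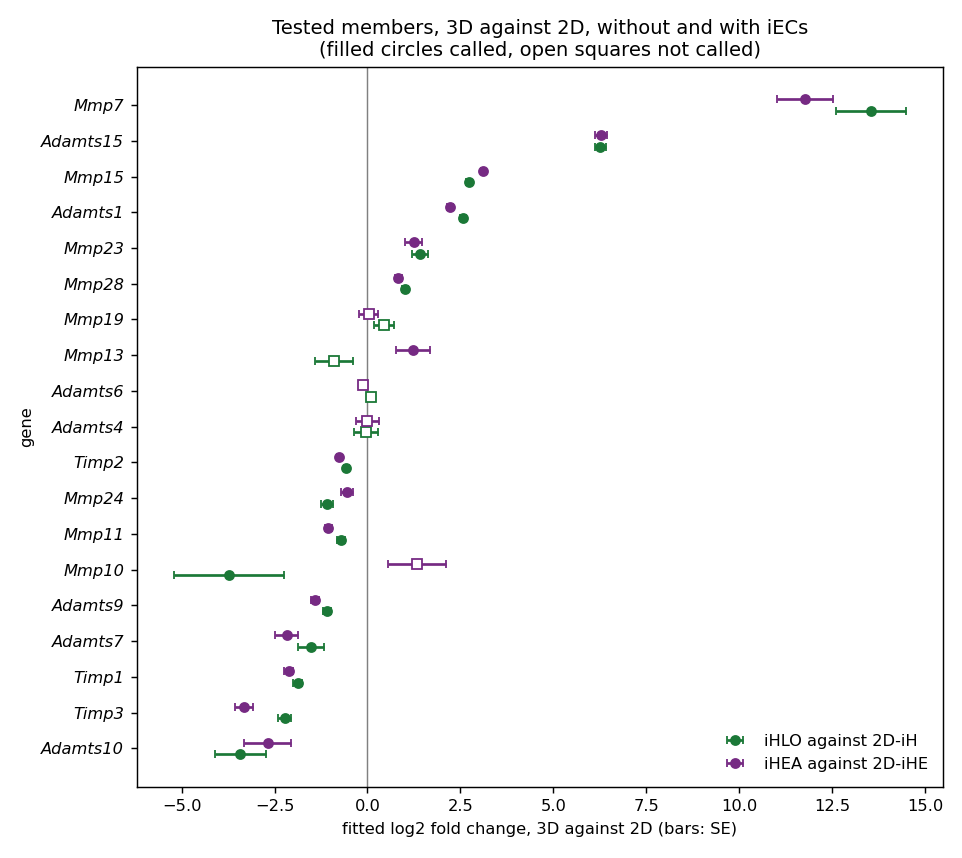
Fitted log2 fold change with its standard error for the 19 tested members, for iHLOs against 2D-iHs (green) and iHEAs against 2D-iHEs (purple), with filled circles for called genes and open squares for genes not called. The 2 comparisons lie on the same side of 0 for all called genes other than *Mmp10* and *Mmp13*, and *Mmp7* lies farthest to the right at 13.56 and 11.78, values that depend on how counts of 0 are handled.

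*Mmp7* encodes matrilysin, a small MMP that is made by epithelial cells, among them bile duct cells. It had 0 counts in both 2D-iH libraries and 1 and 0 in the 2D-iHE libraries. In 3D it had 1568 and 1456 counts in iHLOs and 1431 and 2617 in iHEAs, that is 42.0 to 91.0 CPM, so the groups did not overlap. Against the 3 counts that the empty 2D-iH libraries still allow, *Mmp7* was at least 524-fold higher in iHLOs (adjusted p = 6.99e-08). It also had no counts in MEFs and fetal liver and 6 and 20 counts in adult liver. The 6 bile duct and progenitor markers did not move as 1 group. *Epcam* had 271 to 491 counts in 2D and 6900 to 9732 in 3D, and *Cdh1* 4740 to 7876 and 12873 to 14820. *Sox9* leaned the other way, with 136 to 279 counts in 2D and 31 to 163 in 3D, ranges that overlap. *Krt19* (16159 to 31981 and 19412 to 24570 counts), *Krt7* (8732 to 15114 and 11788 to 14388) and *Spp1* (424 to 800 and 348 to 598) also had overlapping counts. The part of these genes in the *Mmp7* result was not tested.

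*Mmp7* lies on chromosome 9 of GRCm38 from 7692090 to 7699585 on the plus strand, at the end of a cluster of 10 MMP genes that spans 427.1 kb (7272514 to 7699585). From the start of the cluster the genes are *Mmp13*, *Mmp12*, *Mmp1b*, *Mmp3*, *Mmp1a*, *Mmp10*, *Mmp8*, *Mmp27*, *Mmp20* and *Mmp7*. *Mmp20*, the tooth enamel protease enamelysin, ends 17.11 kb before *Mmp7* on the same strand. *Mmp20* had no counts in MEFs, 2D-iHs, 2D-iHEs, adult liver and fetal liver, 3 and 10 in iHLOs and 10 and 10 in iHEAs. Its counts were too low for the test. *Mmp8* likewise had no counts in 2D, and its 3D counts are given with library 1 of iHEAs. Of the other cluster genes, *Mmp12*, *Mmp27* and *Mmp3* stayed at 4 counts or fewer in every 3D library.

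The promoters of the cluster are shown because *Mmp7* went from near 0 to 1431 counts or more while its neighbours did not. RefSeq promoter windows of 300 bases (250 before and 50 after each start, GRCm38.p6) were matched to 32 of the 46 members by symbol. The letters TGAGTCA, the binding motif of AP-1 (Fos and Jun dimers), were found on either strand in 7 of 10 cluster genes, in none of 22 other members, and in 5.95% of all 27025 genes with a window. The letters TATAAA before the start, on the strand of the gene, were found in 7 of 10 cluster genes, 2 of 22 others and 8.94% of all genes. Counted by window, of which there were 32851, the AP-1 letters were in 5.2% and TATAAA in 7.59%. For *Mmp7*, *Mmp12* and *Mmp23*, which have more than 1 window, either window counted. The AP-1 letters were in the windows of *Mmp7* and of *Mmp3* and *Mmp1a* alike, and *Mmp3* and *Mmp1a* stayed at 4 counts or fewer in 3D. Below are the 120 bases that end just before the start, 5′ to 3′, with TGAGTCA (or its reverse complement TGACTCA) and TATAAA in capitals.
Mmp7 (GRCm38.p6, chr9:7691970-7692089, plus strand): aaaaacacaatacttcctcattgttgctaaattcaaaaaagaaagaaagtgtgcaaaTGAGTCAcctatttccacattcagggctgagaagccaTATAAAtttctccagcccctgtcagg
Mmp20 (GRCm38.p6, chr9:7628111-7628230, plus strand): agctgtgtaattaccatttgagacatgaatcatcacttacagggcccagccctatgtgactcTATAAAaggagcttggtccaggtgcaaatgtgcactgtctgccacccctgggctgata
Mmp10 (GRCm38.p6, chr9:7502222-7502341, plus strand): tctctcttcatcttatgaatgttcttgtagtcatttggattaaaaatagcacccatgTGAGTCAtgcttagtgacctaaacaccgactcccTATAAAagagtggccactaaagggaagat
Mmp13 (GRCm38.p6, chr9:7272394-7272513, plus strand): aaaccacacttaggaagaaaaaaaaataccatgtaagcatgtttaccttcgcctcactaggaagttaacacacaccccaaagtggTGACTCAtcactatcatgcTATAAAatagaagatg
Mmp15 (GRCm38.p6, chr8:95352176-95352295, plus strand): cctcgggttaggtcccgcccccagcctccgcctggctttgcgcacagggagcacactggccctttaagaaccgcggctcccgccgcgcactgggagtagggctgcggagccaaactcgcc
In the *Mmp7* window the AP-1 letters begin 63 bases and TATAAA 26 bases before the start. *Mmp10* has them at 63 and 29 bases and *Mmp13* at 35 and 16 bases. The window of *Mmp20* holds TATAAA 58 bases before the start without the AP-1 letters, and that of *Mmp15*, on chromosome 8, holds neither. A match is a string of letters and does not show that a factor binds there.

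The genes of AP-1 and ETS factors were set beside these promoters. Of 11 genes, all tested, 6 fell and 2 rose in 3D, a share called of 72.7%, near the 75.9% of all genes. *Fosl1*, a Fos-related AP-1 subunit, fell from 9.05 to 11.2 CPM in 2D to 0.235 to 0.440 in 3D (log2 fold change −4.90 ± 0.16, SE, adjusted p = 2.66e-10). *Etv4*, an ETS factor, fell from 15.97 to 21.8 CPM to 1.80 to 2.81 (log2 fold change −3.06 ± 0.16). *Fos*, *Fosl2* and *Jun* were not called, with log2 fold changes of −0.01, 0.00 and −0.05, and *Jund* was higher by 0.63.

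*Mmp15* (MT2-MMP), a membrane-type MMP of epithelial cells, lies on chromosome 8 from 95352268 to 95375080. It had 34.4 and 37.7 CPM in 2D-iHs, 31.3 and 29.4 in 2D-iHEs, 230 and 229 in iHLOs and 250 and 263 in iHEAs. Every 3D library was above every 2D library, a rise of 7.32-fold in mean CPM (log2 fold change 2.91 ± 0.08, adjusted p = 6.21e-11). By mean CPM *Mmp15* was highest of all 7 conditions in iHEAs, with 101 CPM in adult liver, 14.9 in fetal liver and 2.62 in MEFs.

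The other membrane-type MMPs did not move with it. *Mmp24* (MT5-MMP), best known from neurons, fell from 4.55 to 6.25 CPM in 2D to 2.50 to 3.41 in 3D (log2 fold change −0.85 ± 0.15, adjusted p = 0.000276), although its call in iHEAs against 2D-iHEs was lost without iHEA library 2 (−0.39, adjusted p = 0.0602). *Mmp14* (MT1-MMP), the main activator of proMMP2, had 17873 and 15578 counts in MEFs and 0 and 0 in 2D-iHs. It had 65 and 34 counts in 2D-iHEs, 0 and 1 in iHLOs and 1 and 1 in iHEAs, too few for the test between cultures. *Mmp16*, *Mmp17* and *Mmp25* had at most 9 counts in any culture library. Thus *Mmp15* and *Mmp24* were the 2 membrane-type members with over 65 counts in a culture library.

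Of the other MMPs, *Mmp11*, *Mmp23* and *Mmp28* were called. *Mmp11*, which unlike most MMPs is activated inside the cell by furin, had 26.0 to 37.5 CPM in 2D and 15.2 to 18.1 in 3D (log2 fold change −0.89 ± 0.11, adjusted p = 1.79e-05). *Mmp28* (epilysin) had 11.9 to 14.2 CPM in 2D and 22.9 to 25.7 in 3D (log2 fold change 0.93 ± 0.07, adjusted p = 1.48e-07). *Mmp23*, a short MMP without the hemopexin domain, had 1.02 to 1.72 CPM in 2D and 3.06 to 3.84 in 3D (log2 fold change 1.34 ± 0.16). In each of these 3 genes the 2D and 3D libraries did not overlap, as in every other called member. *Mmp19* was not called, with 1.32 to 2.61 CPM in 2D and 1.39 to 2.47 in 3D. *Furin*, the proprotein convertase that activates *Mmp11* and the membrane-type MMPs, rose from 115 to 135 CPM in 2D to 236 to 270 in 3D (log2 fold change 1.04 ± 0.06, adjusted p = 2.46e-08).

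Among the 7 ADAMTS proteoglycanases, which cut versican and aggrecan, 4 were tested, of which 2 rose and 1 fell. *Adamts15* had 0.369 to 0.486 CPM in 2D and 28.2 to 35.3 in 3D, a rise of 76.1-fold (log2 fold change 6.26 ± 0.12, adjusted p = 1.00e-11). It is on chromosome 9 from 30899155 to 30922452, outside the MMP cluster. *Adamts1* had 4.42 to 5.48 CPM in 2D, 31.0 and 30.7 in iHLOs and 21.1 and 20.99 in iHEAs (log2 fold change 2.42 ± 0.15 for 3D against 2D, adjusted p = 4.81e-08). *Adamts9* fell from 23.0 to 25.6 CPM to 8.45 to 11.8 (log2 fold change −1.25 ± 0.09, adjusted p = 1.79e-07). *Adamts4* was not called, with 0.728 to 0.901 CPM in 2D and 0.591 to 1.06 in 3D.

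The other ADAMTS genes that were called fell. *Adamts7*, which cleaves cartilage oligomeric matrix protein, had 1.35 and 1.94 CPM in 2D-iHs, 3.68 and 3.44 in 2D-iHEs and 0.441 to 1.03 in 3D (log2 fold change −1.93 ± 0.37, adjusted p = 0.000536). *Adamts10*, a protease linked to fibrillin microfibrils, had 26 to 57 counts in 2D, 6 and 1 in iHLOs and 12 and 0 in iHEAs (log2 fold change −3.00 ± 0.51, adjusted p = 0.000209). Its call in iHEAs against 2D-iHEs was lost with DESeq2 (adjusted p = 0.066). *Adamts19* had 4 to 6 counts in each 2D library and none in 3D, and *Adamts17* 0 to 1 in 2D and 2 to 5 in 3D, too few for the test. *Adamts6* was nearly level, at 22.1 to 23.4 CPM in 2D and 19.8 to 25.0 in 3D (log2 fold change −0.00 ± 0.07, not called). The 3 procollagen N-propeptidases *Adamts2*, *Adamts3* and *Adamts14* had at most 22 counts in any culture library and were not tested there. *Adamts12*, *Adamts13*, *Adamts16*, *Adamts18* and *Adamts20* had at most 2 counts in every culture library, a depth at which no difference is detectable.

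All 3 TIMP genes that could be tested fell in 3D, where 37.2% of all genes did. *Timp2*, the TIMP that also takes part in proMMP2 activation, had 400 to 468 CPM in 2D and 247 to 281 in 3D (log2 fold change −0.67 ± 0.06, adjusted p = 1.75e-06). *Timp1*, the TIMP best known from fibrotic liver, had 17.4 to 22.1 CPM in 2D and 4.07 to 5.05 in 3D (4.13-fold lower in mean CPM, adjusted p = 7.99e-09). *Timp3*, which is bound to the matrix, had 19.2 and 19.3 CPM in 2D-iHs, 12.1 and 13.02 in 2D-iHEs, 5.09 and 2.84 in iHLOs and 1.47 and 0.938 in iHEAs (log2 fold change −2.56 ± 0.37, adjusted p = 5.73e-05). The 2D and 3D libraries did not overlap in these 3 genes, as in every other called member, and the share over all genes is not given here. The directions of the 3 genes were the same under TMM, DESeq2 size factors and library totals alone. *Timp1*, *Timp3* and *Timp4* each overlap a synapsin gene on the other strand (*Syn1*, *Syn3* and *Syn2*), and *Timp2* overlaps *Cep295nl* on its own strand. The strand setting of the counting is not given in the sources used here, so their reads could not be told apart. The same holds for some other members that overlap a gene with counts on the other strand, namely *Mmp11* (*Chchd10*, 814 to 1786 counts in the cultures), *Mmp24* (*BC029722*, 493 to 1128, with 639 to 1128 in 2D and 493 to 681 in 3D), *Mmp28* (*1700020L24Rik*, 31 to 137), *Mmp19* (*Tmem198b*, 129 to 243), *Adamts7* (*Tbc1d2b*, 2075 to 4581) and *Adamts9* (*9530026P05Rik*, 46 to 123).

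**Figure D4:**
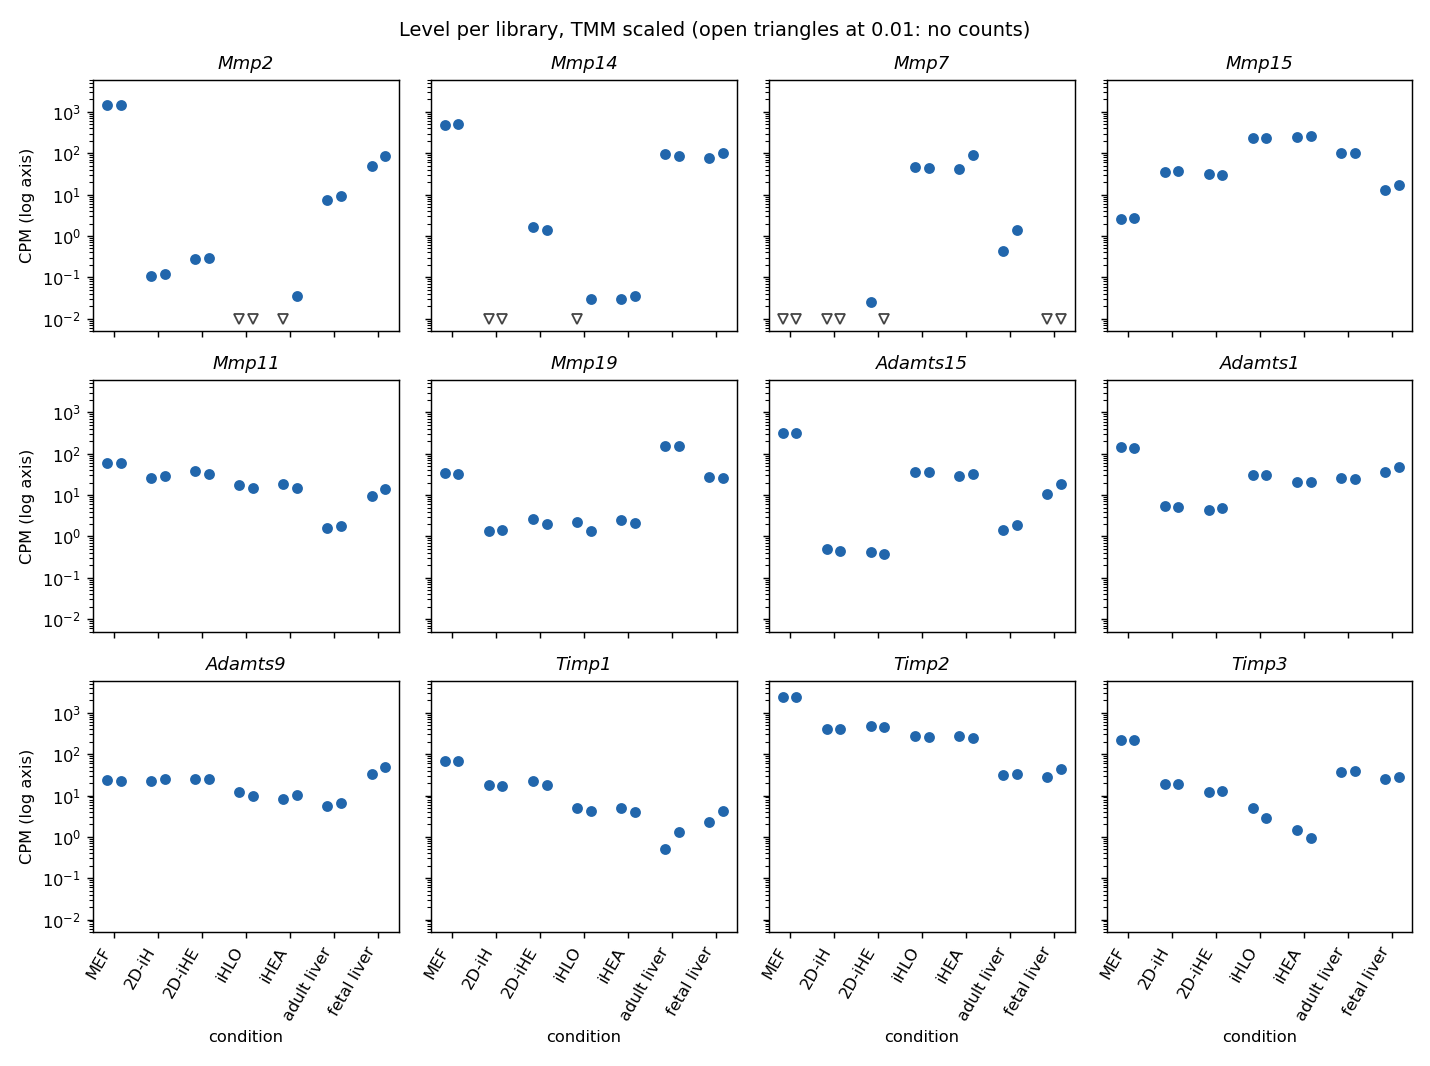
Level of 12 members in each library of the 7 conditions as TMM-scaled CPM on a log axis, with open triangles at 0.01 for libraries with no counts. *Mmp7*, *Mmp15* and *Adamts15* lie higher in the iHLO and iHEA libraries than in every 2D library, *Timp1*, *Timp2* and *Timp3* lie lower, and *Mmp2* lies above 1000 CPM in MEFs and below 0.3 CPM in all culture libraries.

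The gelatinases were nearly absent from the cultures. *Mmp2* had 54417 and 45861 counts in MEFs, 4 and 4 in 2D-iHs, 11 and 7 in 2D-iHEs, 0 and 0 in iHLOs and 0 and 1 in iHEAs. *Mmp9* (gelatinase B) had at most 4 counts in any culture library, and 118 and 83 in fetal liver. These counts were too low for the test between cultures. Without the filter on low counts, 23 members were called between 3D and 2D, 10 higher and 13 lower, among them *Mmp2* and *Mmp14*, and 53.2% of all genes were called in that way (27.8% higher and 25.4% lower).

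Partners of the members were followed with lists of related genes, set beside the 75.9% of all genes that were called between 3D and 2D. Of the plasminogen system, whose protease plasmin activates proMMPs, *Plau* (urokinase) fell from 3.35 to 4.72 CPM to 0.235 to 0.528 (log2 fold change −3.49 ± 0.23), and *Plg* itself had at most 5 counts in the cultures. Of other inhibitors, activators and cofactors, 4 of 6 tested rose and 2 fell. *Lcn2*, which forms a complex with MMP9, rose by 3.66 ± 0.38 and the proteoglycan gene *Spock2* by 3.72 ± 0.27 on the log2 scale. *Reck*, a membrane-bound MMP inhibitor, fell by 0.70 on the log2 scale with overlapping libraries.

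Of the ADAM sheddases, 3 of 7 tested rose and 3 fell. *Adam8* had 83.3 to 116 CPM in 2D and 0.942 to 2.24 in 3D (log2 fold change −5.88 ± 0.19), and *Adam12* 28.5 to 44.3 and 0.589 to 1.49 (−5.18 ± 0.23). Of the ADAMTS-like and astacin genes, 4 of 6 rose and 2 fell. The meprins led, *Mep1b* with 1 to 3 counts in 2D and 185 to 234 in 3D, and *Mep1a* with 0 to 3 and 19 to 38. Both meprins pass the filter on low counts in 3D alone, which fixed their direction. Of the substrates, 5 of 7 tested fell and 2 were not called. *Vcan* (versican), a substrate of ADAMTS1 and ADAMTS15, fell from 14.98 to 19.5 CPM to 1.57 to 3.68 (log2 fold change −2.67 ± 0.20), and *Col1a1* fell by 2.65 on the log2 scale. *Col4a1* and *Col4a2*, the basement membrane collagen genes, fell by 1.19 and 1.48.

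The second comparison asked what the addition of iECs did. In 2D, 5 of 19 members were called between 2D-iHEs and 2D-iHs, 3 higher and 2 lower, where 8.17% of all genes were called (4.26% higher and 3.92% lower). *Adamts7* was higher by 1.13 ± 0.28, *Mmp11* by 0.39 ± 0.09 and *Timp2* by 0.22 ± 0.06 on the log2 scale (adjusted p = 0.0265, 0.0195 and 0.0387 with edgeR). *Timp3* fell by 0.61 and *Mmp15* by 0.23 (adjusted p = 0.0359 and 0.0452). The libraries did not overlap for these 5 genes. Nor did they for *Mmp19*, *Mmp24*, *Adamts1*, *Adamts9*, *Adamts15* and *Timp1*, which were not called, so the lack of overlap does not set the called genes apart. With any 1 of the 4 libraries left out at most 1 call remained, that of *Mmp11* without library 2 of 2D-iHEs, so these calls rest on all 4 libraries together. With library totals alone *Mmp15* was not called (−0.21, adjusted p = 0.0703). The share of higher calls among all genes was 52.1% with TMM and 64.6% with library totals alone.

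*Mmp14* had 65 and 34 counts in 2D-iHEs (1.62 and 1.39 CPM) and none in 2D-iHs. *Col1a1* moved with it, at 441 and 234 counts in 2D-iHEs and 93 and 93 in 2D-iHs, whereas *Col1a2*, *Col3a1*, *Lum* and *Thy1* had 0 to 3 counts in all 4 libraries. Mouse and human cells as the source of the *Mmp14* counts cannot be told apart. *Mmp14* was not tested in the main comparison because of its low mean, and was called higher in 2D-iHEs without the filter.

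In 3D, 2 of 19 members were called between iHEAs and iHLOs, both lower in iHEAs, where 2.26% of all genes were called (1.19% higher and 1.07% lower). *Timp3* had 173 and 94 counts in iHLOs and 50 and 27 in iHEAs, and fell by 1.70 on the log2 scale (SE 0.28, adjusted p = 0.0064). *Adamts1* had 1055 and 1015 counts in iHLOs and 719 and 604 in iHEAs, and fell by 0.55 (SE 0.07, adjusted p = 0.00146). At an unadjusted p-value under 0.05, 4 members were higher and 4 lower, where 12.7% of all genes were (6.23% higher and 6.46% lower), and the Wald test of DESeq2 also called 2, both lower. Without the filter on low counts, 6 members were called higher in iHEAs (*Adamts2*, *Mmp7*, *Mmp8*, *Mmp10*, *Mmp13* and *Timp4*) and 2 lower, where 4.23% of all genes were called (2.06% higher and 2.17% lower). Of those not called, *Mmp15* had a log2 fold change of 0.16 ± 0.05 (adjusted p = 0.182) and *Mmp7* by 0.56 ± 0.25 (adjusted p = 0.374). For *Mmp7* the value was 1.03 without iHEA library 1 and −0.11 without iHEA library 2, each resting on 1 iHEA library. With only the 4 libraries compared, *Timp3* was not called (adjusted p = 0.0746). The endothelial markers summed to 1208 and 1352 CPM in iHLOs and 939 and 871 in iHEAs. Most of these counts were of *Vwf* (22039 and 25206 against 15418 and 11946) and *Cdh5*. *Kdr* (2 and 4 against 0 and 0) and *Pecam1* (14 and 22 against 19 and 9) had few. The cholangiocyte and progenitor markers summed to 1619 and 1551 CPM in iHLOs and to 1885 and 1936 in iHEAs. The part of these lists in the results was not tested.

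The difference that iECs made in 3D was set against that in 2D with an interaction term. *Mmp15* was called, since iECs went with 0.16 more in 3D and 0.23 less in 2D on the log2 scale, a difference of 0.39 ± 0.08 (adjusted p = 0.0251), where 3.14% of all genes were called (1.52% higher and 1.62% lower). With all 14 libraries in the fit the value was 0.40 with adjusted p = 0.0848. The call was also lost when library 2 of 2D-iHs, either 2D-iHE library or either iHLO library was left out (adjusted p = 0.091 to 0.119). For *Timp3* the interaction was −1.09 ± 0.32 (adjusted p = 0.104), so its fall with iECs was not shown to differ between 2D and 3D. With DESeq2 it was −1.10 (adjusted p = 0.0235), and it was called also without iHLO library 2 or iHEA library 1 (−1.45 in both).

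The 2 iHEA libraries differed from each other in several members. *Timp4* had 100 counts in library 1 and 4 in library 2, *Mmp10* 70 and 3, *Mmp8* 30 and 4, and *Mmp13* 339 and 75. Conversely *Mmp7* had 1431 and 2617. Of the 21 members with 20 or more counts in at least 1 of the 2 libraries, *Mmp10*, *Mmp8* and *Timp4* differed by over 4-fold in CPM, all higher in library 1. Among all 12591 genes with such counts, 79 (0.627%) differed by over 4-fold, 66 higher in library 1 and 13 in library 2, and no other condition had a member that did.

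*Mmp13* (collagenase 3), *Mmp10* (stromelysin-2) and *Mmp8* (neutrophil collagenase) lie in the chromosome 9 cluster. *Mmp13* had 36 and 73 counts in iHLOs and 99 and 79 in 2D-iHEs, so its call in iHEAs against 2D-iHEs (log2 fold change 1.22 ± 0.45, adjusted p = 0.0288) had overlapping libraries, and without iHEA library 1 the value was −0.05 (adjusted p = 0.89). The call was also lost without either 2D-iHE library (0.99 and 1.41, adjusted p = 0.195 and 0.0668). *Mmp10* had 13 to 19 counts in the 2D libraries and 2 and 0 in iHLOs, and was called lower in iHLOs (adjusted p = 0.0384, with its direction fixed by the filter), a call lost with any of the 4 libraries left out (adjusted p = 0.0642 to 0.178). Beside these members, library 1 also had more counts of *Tat* (538 against 62), *Serpine2* (477 against 96), *Fn1* (13020 against 4280) and *Postn* (43 against 0). The 8 neutrophil markers had at most 3 counts each in both iHEA libraries. The part of these genes in the difference between the libraries was not tested. Without iHEA library 1, 4 members were called between iHEAs and iHLOs (2 higher, 2 lower), with 1 iHEA library against 2 iHLO libraries, where 5.41% of all genes were called (2.85% higher and 2.56% lower). Without library 2, 5 members were called (2 higher, 3 lower), where 4.81% of all genes were (2.53% higher and 2.29% lower).

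**Figure D5:**
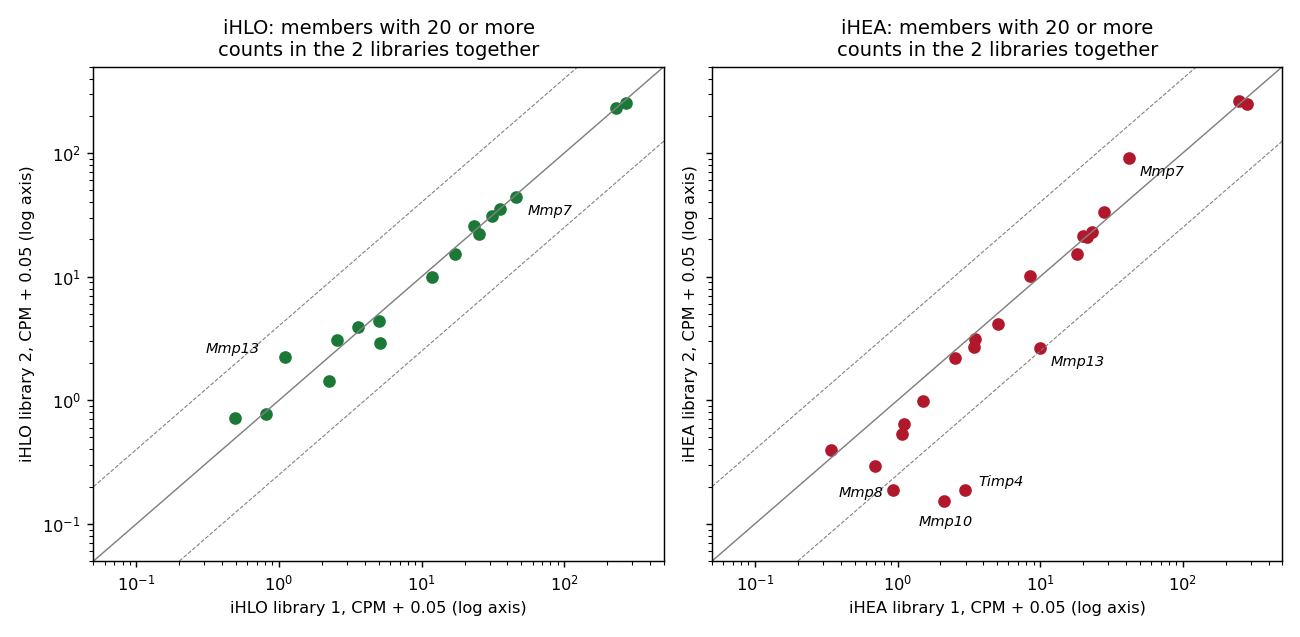
Library 1 against library 2 of iHLOs (left) and iHEAs (right), as CPM plus 0.05 on log axes, for members with 20 or more counts in both libraries together. The solid line marks equal values and the dashed lines a 4-fold difference. *Timp4*, *Mmp10* and *Mmp8* lie beyond the dashed line toward iHEA library 1, and no member does so in iHLOs.

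The third comparison set 2D-iHs against the fibroblasts they came from. *Mmp2*, *Mmp14* and the procollagen N-propeptidases fell to near 0, 12 of 14 tested ADAMTS genes fell, all 3 tested TIMP genes fell, and *Mmp15*, *Mmp24* and *Adamts6* rose. Of 29 members tested, 24 were lower and 3 higher, whereas among all 14086 genes 39.1% were lower and 45.6% higher (84.7% called). Of the 24 lower members, 12 passed the filter on low counts through their MEF counts alone, and *Mmp24* passed through 2D-iHs alone, so the filter fixed their direction. Of the 16 members that pass it in both conditions, 12 were lower and 2 higher. Among the ADAMTS genes, 7 of the 12 that fell passed through MEFs alone. Of the 7 ADAMTS genes that pass in both conditions, 5 fell and 1 rose. The fibroblast and mesenchymal markers summed to 29540 and 30940 CPM in MEFs and 5.10 and 5.70 CPM in 2D-iHs, and their part in the result was not tested.

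*Mmp14* was at least 5757-fold lower in 2D-iHs, where it had no counts, and *Mmp16*, also without counts there, at least 231-fold lower. *Mmp2* went from 1476 and 1486 CPM to 0.108 and 0.121 (log2 fold change −13.56 ± 0.32, adjusted p = 2.71e-15). *Adamts12* had 3255 and 2759 counts in MEFs and 1 and 1 in 2D-iHs, and *Adamts2* 2280 and 1903 against 2 and 3. *Adamts5*, a main aggrecanase, had 4922 and 3955 counts against 11 and 3, and these 3 genes were called lower. *Adamts15* fell from 312 and 315 CPM to 0.486 and 0.455 (log2 fold change −9.32 ± 0.23), so that its level in iHLOs, 35.1 and 35.3 CPM, was still below that of MEFs.

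*Adamts10* fell by 7.03, *Adamts1* by 4.68, *Mmp19* by 4.56 and *Adamts7* by 3.34 on the log2 scale. *Timp2* fell from 2458 and 2418 CPM to 401 and 400 (log2 fold change −2.56 ± 0.13), *Timp3* by 3.45 and *Timp1* by 1.89. The members that rose were *Mmp15*, from 2.52 and 2.72 to 34.4 and 37.7 CPM (log2 fold change 3.83 ± 0.12, adjusted p = 2.62e-14), *Mmp24*, from 3 and 2 counts to 224 and 206 (adjusted p = 4.59e-10), and *Adamts6*, from 15.1 and 13.7 to 23.0 and 22.6 CPM (0.71 ± 0.11). *Adamts9* and *Mmp13* were not called, with log2 fold changes of 0.10 ± 0.15 and −0.20 ± 0.43. Of the substrates, 12 of 13 tested were lower in 2D-iHs, where 39.1% of all genes were, and 5 of the 12 passed the filter through MEFs alone. They were led by collagen I, whose *Col1a2* had 424268 and 370831 counts in MEFs and 2 and 2 in 2D-iHs.

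The fourth comparison set iHLOs against adult liver, the tissue that the organoids are meant to resemble. *Mmp7*, *Mmp28*, *Adamts15*, *Mmp24*, *Mmp11*, *Adamts6*, *Timp2*, *Timp1* and *Mmp15* were higher in iHLOs, whereas *Mmp2*, *Mmp14*, *Mmp19*, *Adamts13*, *Adamts2*, *Adamts10*, *Adamts5*, *Adamts7* and *Timp3* were lower. Of 23 members tested, 11 were higher and 9 lower, where 87.1% of all 13988 genes were called (47.2% higher and 39.9% lower). Of the called members, 2 of the higher (*Mmp24* and *Mmp28*) and 6 of the lower ones passed the filter on low counts in only 1 of the conditions, which fixed their direction. The lower ones were *Mmp2*, *Mmp14*, *Adamts2*, *Adamts5*, *Adamts10* and *Adamts13*. Adult liver is a tissue of many cell types. The 6 stellate markers summed to 224 and 218 CPM there and to 0.530 and 0.453 CPM in iHLOs. The 8 endothelial markers summed to 501 and 517 CPM in adult liver and 1208 and 1352 CPM in iHLOs, but did not go 1 way. *Vwf*, *Cdh5* and *Tek* had more counts in iHLOs. *Pecam1* (14 and 22 against 669 and 635), *Kdr* (2 and 4 against 1714 and 1919), *Stab2* (127 and 99 against 2213 and 2521) and *Tie1* had fewer, and *Egfl7* overlapped. The part of these markers in the results was not tested.

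The adult libraries have TMM factors of 0.412 and 0.420, where the others have 1.12 to 1.21. The median log2 fold change of all genes between iHLOs and adult liver was 0.15 with TMM, −0.07 with DESeq2 size factors and 1.55 with library totals alone, so values near these shifts depend on the scaling. For instance, *Adamts1*, higher in iHLOs by 0.40 ± 0.10 with TMM, was not called with DESeq2 size factors or without adult library 2 (0.23, adjusted p = 0.117). With library totals alone 77.9% of the calls among all genes were higher in iHLOs, against 54.2% with TMM.

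*Mmp14* had 1334 and 1281 counts in adult liver and 0 and 1 in iHLOs (adjusted p = 1.61e-15). *Mmp2*, with 103 and 139 counts in adult liver and none in iHLOs, was at least 93.5-fold lower. *Mmp19*, an MMP of blood vessels, skin and other tissues, had 152.8 and 152.9 CPM in adult liver and 2.21 and 1.39 in iHLOs (log2 fold change −6.29 ± 0.13, adjusted p = 3.98e-17). *Adamts13*, which cleaves von Willebrand factor and is made by hepatic stellate cells, had 177 and 216 counts in adult liver and 1 and 0 in iHLOs. Its substrate gene *Vwf* had 22039 and 25206 counts in iHLOs, which received no iECs, and 149 and 134 in adult liver.

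In the other direction, *Mmp28* had 23.4 and 25.7 CPM in iHLOs and 0.495 and 0.204 in adult liver (log2 fold change 6.24 ± 0.22, adjusted p = 6.73e-14). *Mmp7* had 46.1 and 43.97 CPM against 0.425 and 1.36 (5.75 ± 0.48), *Adamts15* 35.1 and 35.3 against 1.42 and 1.90 (4.51 ± 0.27), and *Timp2* 270 and 254 against 31.5 and 32.7 (3.14 ± 0.14). *Mmp15*, with 230 and 229 CPM against 101.3 and 100.7, differed least of the called MMP genes (1.29 ± 0.08, adjusted p = 1.35e-10). *Timp3* fell by 3.13 on the log2 scale, from 37.2 and 38.1 CPM in adult liver to 5.09 and 2.84 in iHLOs (SE 0.15, adjusted p = 5.33e-12).

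The last comparison set the 2 reference tissues against each other. *Mmp2*, *Mmp9* and most ADAMTS genes were lower in adult than in fetal liver, whereas *Mmp27*, *Mmp15*, *Mmp19*, *Mmp12*, *Adamts13* and *Timp3* were higher, the last 2 with TMM and DESeq2 size factors but not with library totals alone, where both turned. Of 36 members tested, 26 were lower and 6 higher in adult liver, where 44% of all 14842 genes were lower and 41.2% higher (85.2% called). Of the calls among all genes 48.3% were higher with TMM and 19% with library totals alone. The filter on low counts was passed through fetal liver alone by 9 of the lower members and through adult liver alone by 2 of the higher ones (*Mmp12* and *Mmp27*), which fixed their direction. Of the 24 members that pass it in both tissues, 17 were lower and 4 higher. The median log2 fold change of all genes was −0.08 with TMM, 0.06 with DESeq2 size factors and −1.52 with library totals alone, and that of the 36 members −1.44, −1.31 and −2.87.

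*Mmp19* had 152.8 and 152.9 CPM in adult and 27.5 and 26.1 in fetal liver (log2 fold change 2.47 ± 0.09, adjusted p = 1.14e-13). *Mmp15* had 101.3 and 100.7 CPM in adult and 12.9 and 17.0 in fetal liver (2.72 ± 0.09, adjusted p = 5.69e-14). *Mmp27* had 53 and 70 counts in adult liver, 5 and 4 in fetal liver, and 0 or 1 in all other libraries. *Mmp12*, the macrophage elastase, had 14 and 9 counts in adult and 9 and 3 in fetal liver (adjusted p = 0.00178), and it overlaps *Mmp1b* on the other strand. It was not called with library totals alone (0.58, adjusted p = 0.289), and without adult library 1 or with the stricter filter its counts were too low for the test. The 6 macrophage markers summed to 1101 and 1055 CPM in adult liver and 207 and 177 CPM in fetal liver, and their part in the *Mmp12* result was not tested.

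*Mmp2* had 7.29 and 9.44 CPM in adult and 49.9 and 84.5 in fetal liver (log2 fold change −3.04 ± 0.22, adjusted p = 2.30e-09). *Mmp14* did not follow it, with 94.4 and 87.0 CPM against 76.6 and 99.3 (0.00 ± 0.10, not called), although with library totals alone its value was −1.44 (adjusted p = 1.73e-09), and without fetal library 2, with 1 fetal library left and its spread taken from the other conditions, it was called higher in adult liver (0.18, adjusted p = 0.0278). *Mmp8* and *Mmp9*, proteases stored in neutrophil granules, had 11 and 7 and 14 and 18 counts in adult liver, and 59 and 53 and 118 and 83 in fetal liver (log2 fold changes −1.55 ± 0.56 and −1.56 ± 0.38). The *Mmp8* call was lost without adult library 1 or 2 (−1.85 and −1.15, adjusted p = 0.0628 and 0.186) and with DESeq2 (adjusted p = 0.119). The 8 neutrophil and granulocyte precursor markers, which include *Mpo* and *Elane*, summed to 15.6 and 17.3 CPM in adult liver and to 396 and 329 in fetal liver, and their part in the *Mmp8* and *Mmp9* results was not tested.

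Of the 18 ADAMTS genes tested between the tissues, 16 were lower in adult liver, where 44% of all genes were, and 6 of the 16 (*Adamts3*, *Adamts4*, *Adamts8*, *Adamts17*, *Adamts18* and *Adamts19*) passed the filter through fetal liver alone, which fixed their direction. *Adamts13* was higher (0.92 ± 0.20, adjusted p = 0.000474), but turned to −0.52 with library totals alone (adjusted p = 0.0254). *Adamts12* fell by 4.25, *Adamts3* by 4.35, *Adamts17* by 4.06, *Adamts15* by 3.18 and *Adamts9* by 2.78 on the log2 scale. *Adamts18* and *Adamts19* had no counts in adult liver and were at least 13.4-fold and 19-fold lower than in fetal liver, with 39 and 131 counts and 104 and 142 counts there. With DESeq2 *Adamts18* was not called (adjusted p = 0.144). *Timp1* was lower in adult liver (7 and 19 counts against 75 and 127; −1.88 ± 0.40, adjusted p = 0.000411) and *Timp3* higher by 0.46 ± 0.12, whereas *Timp2* was not called. *Timp2* was called lower without fetal library 1 (−0.43, adjusted p = 0.000345) and with library totals alone (−1.64, adjusted p = 2.51e-08). With library totals alone *Timp3* turned to −0.98. The fibroblast and mesenchymal markers summed to 546 and 509 CPM in adult and 1916 and 3172 in fetal liver, and their part in these results was not tested.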

How the data were processed

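RNA-seq was available for 14 libraries of 7 conditions, grouped by their labels. Every label reads replicate 1, and the column name of the second iHEA library carries conflicting numbers, so library numbers serve only as names. According to the methods and the submitters' processing notes, the authors trimmed 150 bp paired-end reads with Trimmomatic 0.36, aligned them with HISAT2 to GRCm38 and made gene counts with HTSeq. Other versions, the strand setting and the treatment of reads with more than 1 match are not given in the sources used here. The deposited values are raw whole-number counts. Low genes were dropped where log2(count + 1) averaged under 3, in the culture libraries (8) or, for reference samples, in both conditions compared (4 libraries). The remaining genes entered edgeR 4.0.16 (quasi-likelihood, TMM, R 4.3.3), a procedure tested on simulated data. Reference comparisons shared 1 fit of 14 libraries. Exon lengths and positions are from GENCODE M21, and lengths set the values per kb. Members were all genes whose symbols match the 3 family names. Per-library values are given for up to 12 called members per comparison with at least 1 CPM in a condition, and for *Mmp2*, *Mmp7*, *Mmp9*, *Mmp14* and the TIMP genes. Other members are named after their values were seen. The rule for members reads symbols alone, but the families and the gene lists were chosen with earlier results of these data known. Alternatives were DESeq2 1.42.0 (size factors and Wald test), other filters, other library sets, a log2 fold change of at least 1, a replicate block and each library left out. Library totals alone, and the block libraries without the block, were added after seeing the data. The results of some related genes are not reported here.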

Additional observations from a re-analysis of the deposited data

Results flagged for a closer look

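Among groups of 4 libraries, 5 of 44 tested had a library far from the other 3 by Dixon's criterion, where chance alone gives about 1 in 20. In the 4 iHLO and iHEA libraries, the highest value was far from the rest in iHEA library 1 for *Timp4* (2.94 CPM, the others 0.0604 to 0.139), *Mmp10* (2.06 CPM, the others 0 to 0.104) and *Mmp8* (0.881 CPM, the others 0.0302 to 0.139). It was far from the rest in iHEA library 2 for *Mmp7* (90.95 CPM, the others 42.0 to 46.1) and in iHLO library 2 for *Mmp28* (25.67 CPM, the others 22.94 to 23.39). For *Mmp28* the distance is small against the 11.9 to 14.2 CPM of the 2D libraries. *Mmp15* is listed because its difference with iECs in 3D minus that in 2D was 0.39 on the log2 scale (interaction term of edgeR, adjusted p = 0.0251).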

How the results depend on the processing

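Between 3D and 2D the 14 called members were called with every library left out, and 13 to 14 under DESeq2, size factors, library totals alone and the stricter filter. Without the filter 23 were called (25 for iHEAs against 2D-iHEs, where 49% of all genes were called, and 33 for iHLOs against adult liver, where 70.6% were), since members with low counts then entered the test. With the stricter filter 20 members were called between adult and fetal liver, since 12 called members had too few counts for it. The share of all genes called with the stricter filter is not given here. Between iHEAs and iHLOs the main 2 calls became 8 without the filter (6 higher and 2 lower), 1 with only the conditions compared or with a log2 fold change of at least 1, and 2 to 5 with a library left out. Between 2D-iHEs and 2D-iHs the 5 calls became 3 with all 14 libraries, 1 with the fold threshold and 0 to 1 with a library left out. For the interaction the single call became 5 without the filter (4.32% of all genes), 2 with DESeq2, 0 with all 14 libraries or the fold threshold, and 0 to 4 with a library left out.

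The library numbers did not pair the libraries: differences of equally numbered libraries correlated between conditions at −0.174 to 0.167. The fit with the number as a replicate block drops the iHEA library without a number. It leaves 1 iHEA library, so its calls between iHEAs and iHLOs and for the interaction are not counted here. In the remaining comparisons the block moved counts by less than 1.5 times.

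Directions of some values near 0 turned. *Mmp13* in iHEAs against 2D-iHEs ranged from −0.05 (without iHEA library 1) to 1.87 (without library 2). In iHEAs against iHLOs, *Mmp7* was −0.11 without iHEA library 2 and 1.03 without library 1, −0.14 with the block and −0.11 with its libraries unpaired. *Timp1* was 0.00 with library totals alone, 0.10 and 0.11 without iHLO library 1 or iHEA library 2 (−0.18 without iHEA library 1), 0.04 with the block and 0.11 unpaired. *Timp2* was −0.00 without the filter, and −0.03 and −0.07 without iHLO library 2 or iHEA library 1 (0.09 without iHEA library 2). In adult against fetal liver, *Mmp14* was −1.44 with library totals alone, −0.02 without the filter, −0.03 with the stricter filter, −0.01 with only these tissues and −0.12 to 0.18 without fetal library 1 or 2. *Timp2* was −0.43 to 0.13 without fetal library 1 or 2 and −1.64 with library totals alone, and *Timp3* and *Adamts13* were −0.98 and −0.52 with library totals alone. The cause of the other changes was not tested. Of 1282 values of single genes under an alternative, 1213 kept direction and call, and members under the filter could not be tested at this depth.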
